A study of Homo sapiens with 4 samples.

Results

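The genes described here make, move, break down and sense prostaglandins. They are HPGD, which encodes the enzyme that inactivates prostaglandins, and 9 further genes of the same route, PTGS1, PTGS2, PTGES, PTGES2, PTGES3, ABCC4, SLCO2A1, PTGR1 and PTGER4. Every probe whose platform symbol was one of these 10 was taken, which gave 15 of the 47323 probes on the array and 10 of its 20046 named genes. The set was chosen by the measured difference of HPGD, which rose after Slug siRNA in this same comparison, with the other genes added by their roles. Its values, and those of the other genes in that comparison, are therefore a description and support nothing further. The adjusted p-values printed below come from 1 fit over all kept probes of the array.

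MCFDCIS, a human cell line of basal-subtype breast cancer, was transfected with siRNA and profiled for gene expression. One group received control siRNA and the other siRNA against Slug, the transcriptional repressor encoded by SNAI2, and RNA was taken 72 hours later. A growth time of 48 hours was also recorded for every array. Each group had 2 arrays, named as biological replicates 1 and 2, of 1 Illumina bead array chip. Differences given within a replicate number are between arrays of the same number, and the labels do not say that these were paired. Whether replicates came from separate days is not stated in the labels. The p-values therefore reflect only the spread among these arrays, whose number limits the precision of every value.

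Prostaglandins are short-lived lipid signals made from arachidonic acid. Cyclooxygenases convert the acid to an unstable intermediate, terminal synthases turn that into prostaglandin E and its relatives, transporters carry these out of and into cells, and a dehydrogenase and a reductase in sequence inactivate them inside the cell. Prostaglandin E acts on neighbouring cells through a small family of G protein-coupled receptors. In epithelial tumours HPGD is known as a brake on this signal that is often expressed at a low level, and repression of HPGD by Snail family proteins has been described in colorectal cancer cells.

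Slug binds DNA at E-boxes, above all CAGGTG, so the sequence before the start of HPGD is shown first. RefSeq (GRCh38.p14) gave 13 start sites for 9 of the 10 genes, and the 250 bases before each were searched for CAGGTG on either strand (read as CACCTG on the other) and for the general form CANNTG, which includes it. One window of HPGD, chr4:174522489-174522738 on the minus strand, held CAGGTG 138 bases before the start, in capitals here.
HPGD: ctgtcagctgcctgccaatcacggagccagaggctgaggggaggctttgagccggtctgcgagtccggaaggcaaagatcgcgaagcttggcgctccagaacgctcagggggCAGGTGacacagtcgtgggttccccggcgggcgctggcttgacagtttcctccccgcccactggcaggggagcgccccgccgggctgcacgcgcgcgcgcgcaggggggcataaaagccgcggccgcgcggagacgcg
The same window held CAGCTG 246 bases before the start, and that of a second annotated start of HPGD, further upstream, held only CAATTG, 250 bases before it; the window shown lies downstream of that start. Of the other genes, PTGES2 had the specific motif before 1 of its 3 starts, as CACCTG at 30 bases. Of all 35116 windows of this length in the table, 17.5% held CAGGTG on either strand and 61.8% held CANNTG, against 2 and 5 of the 13 windows here. A match of letters is not a bound site, and binding was not measured.

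The target of the siRNA, SNAI2, read lower in both Slug siRNA arrays on both of its probes. The brighter probe had intensities of 579 and 600.5 units with control siRNA and 483 and 476 with Slug siRNA. The fitted difference was -0.44 on the log2 scale (95% interval -0.81 to -0.07, limma adjusted p = 0.316), so the fall missed the adjusted threshold. Of the epithelial marker genes, 7 or 8 of 8 were detected on each array, as were all 5 basal breast epithelial markers that had a probe. Of the other cell types, 0 or 1 of 8 fibroblast, 1 or 2 of 6 endothelial and 3 of 7 leukocyte markers were detected, and the leukocyte antigen PTPRC, the endothelial cadherin CDH5 and the fibroblast collagen COL3A1 were at background on every array. The leukocyte markers CD14, CD68 and LYZ and the endothelial marker PECAM1 were detected on all 4 by at least 1 probe. The fibroblast marker COL1A1 was detected on 2 arrays and the endothelial marker KDR on 1. The brighter CD14 probe read 963 and 833 units with control siRNA and 1557 and 1006 with Slug siRNA, and PECAM1 read 647 and 501 against 451 and 332.

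HPGD encodes the NAD-dependent dehydrogenase that oxidises prostaglandin E to its inactive keto form, the committed step of breakdown. Its single probe read 137 and 133 intensity units with control siRNA and 243 and 235 with Slug siRNA. Both Slug siRNA arrays lay far above both control arrays, and the replicates of each group were close together. The standard error over beads was 4.36 to 10.6 units, from 17 to 23 beads an array.

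HPGD was dim in control cells. The mean of the negative controls was 110 to 115 units on the 4 arrays, so HPGD stood 26.9 and 19.98 units above it with control siRNA and 131 and 121 units above it with Slug siRNA. Detection p-values, which rank a probe among the negative controls, were 0.0039 and 0.021 in the control arrays and 0 in both Slug siRNA arrays, so the gene was called detected on all 4. On the normalized log2 scale, HPGD rose from 5.31 ± 0.15 to 7.10 ± 0.06 (SD, n = 2 each). The fitted difference was 1.79 on the log2 scale (SE 0.17, 95% interval 1.40 to 2.18, limma adjusted p = 0.033). The difference was 1.73 between the arrays numbered 1 and 1.85 between those numbered 2. On this scale the fitted difference was the 7th highest log2 fold change among 11200 genes. HPGD was chosen for its difference, and the rank on other scales is not given here. HPGD was the 1 member that passed of the 9 that could be tested, where 0.116% of all genes passed in either direction, 0.0357% as higher and 0.0804% as lower. In RNA from a whole culture, more HPGD RNA per cell and more cells that express it cannot be told apart.

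The direction of the HPGD difference was the same on each scale, but its size depended on how the background was treated. The ratio of Slug siRNA over control was 1.77 for the deposited intensities, which contain the background, and 3.46 on the normalized scale, which keeps an offset of 16 units. It was 5.36 for the intensity above the negative control mean. In the authors' normalized table the 4 values were 31.1 and 24.2 with control siRNA and 143 and 133 with Slug siRNA, a ratio of 4.99. Within replicates the ratio of deposited intensities was 1.78 and 1.77, and that above the negative control mean 4.86 and 6.03.

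Whether HPGD passed the threshold depended on the arrays and the filter. Without control siRNA replicate 1 the log2 fold change of HPGD was 1.89 and the limma adjusted p 0.059, and without Slug siRNA replicate 1 they were 1.75 and 0.062. With no filter on dim probes the adjusted p was 0.126, and with the authors' normalized values it was 0.059 for a log2 fold change of 1.82. Without background correction the log2 fold change was 0.78 (adjusted p = 0.018). Of the 7 kept epithelial markers, 5 were higher and 2 lower with Slug siRNA (CDH3 at -0.16, DSP at -0.05), and 0 passed the threshold. The brightest were EPCAM, at 8676 and 8492 units against 6348 and 6271, and KRT8, at 4845 and 6322 against 2657 and 2821. The log2 of the summed intensity of the 8 epithelial markers, in which these weigh most, was 14.24 and 14.43 with Slug siRNA against 13.82 and 13.84. That of the 5 basal breast epithelial markers was 13.75 and 13.59 against 13.77 and 13.60. The leukocyte list summed to 11.25 and 10.90 against 10.81 and 10.76, the fibroblast list to 9.89 and 9.84 against 9.78 and 9.82, and the endothelial list to 9.96 and 9.79 against 10.21 and 10.03. These sums contain the background. It makes up nearly all of the fibroblast sums, with 0 or 1 of 8 markers detected on an array. It is also a large part of the endothelial sums, with 1 or 2 of 6 detected. The part of these lists in the HPGD result was not tested.

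**Figure D1:**
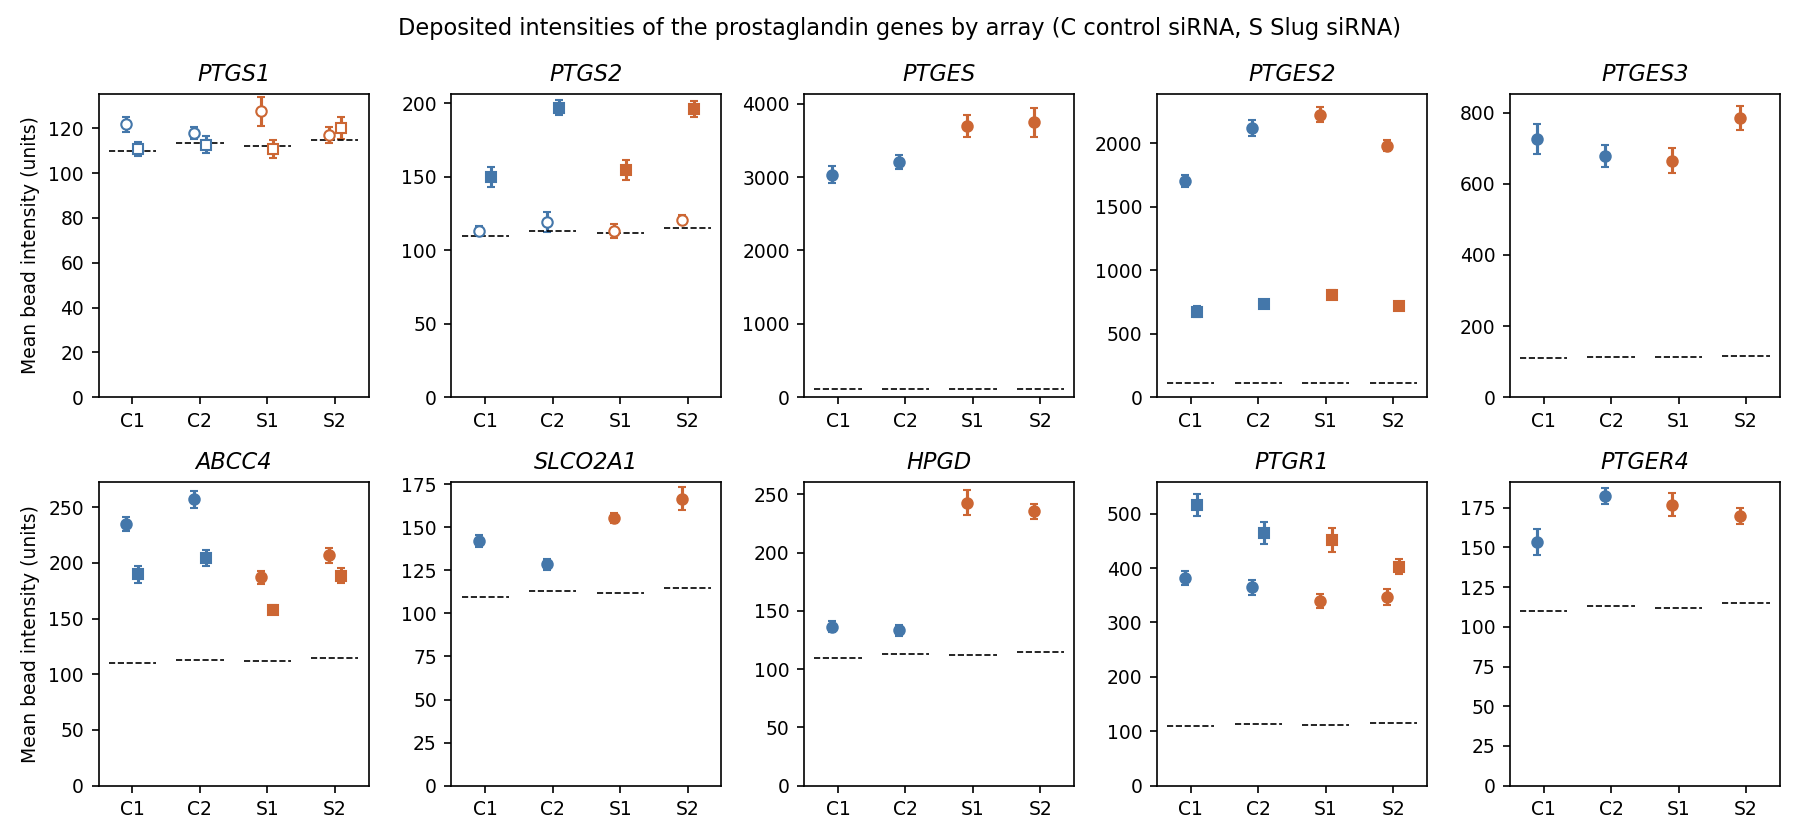
Deposited mean bead intensity (units, linear axis from 0) of each prostaglandin gene on the control siRNA arrays (C1, C2, blue) and the Slug siRNA arrays (S1, S2, orange), with circles and squares for the first and second probe of a gene, open symbols for probes not kept, bars for the standard error over beads and dashes for the mean of the negative controls. HPGD sits at 133 to 137 units in control arrays and 235 to 243 in Slug siRNA arrays, while the PTGS1 probes stay near the dashes.

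Of the cyclooxygenases, PTGS2 was detected on every array by 1 of its 2 probes, and PTGS1 was not kept. PTGS1, the constitutive cyclooxygenase, had 2 probes with intensities of 111 to 128 units over the 4 arrays. Only Slug siRNA replicate 1 passed the detection threshold, on 1 of them, so PTGS1 was not kept and no fold is given. PTGS2, the inducible cyclooxygenase, had 1 probe at background on all arrays, at 113 to 121 units.

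Its other probe was detected on all 4 arrays and separated the replicate numbers, not the siRNAs. It read 150 and 197 units in control replicates 1 and 2 and 154 and 196 units in Slug siRNA replicates 1 and 2. The arrays numbered 2 were thus higher than those numbered 1 in both groups, by 0.92 and 0.75 on the log2 scale. The Slug siRNA minus control difference was -0.07 (95% interval -0.89 to 0.76, adjusted p = 0.969). In a fit with group and replicate number as terms, chosen after the data were seen, the replicate difference of PTGS2 was 0.84 (SE 0.14, limma adjusted p = 0.142). In that fit 0% of the 11200 genes passed, 16.6% had an unadjusted p under 0.05, and in 38.1% the replicate numbers did not overlap.

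The terminal synthases of prostaglandin E were all well above background. PTGES, the inducible membrane-bound synthase that works with PTGS2, read 3031 and 3211 units with control siRNA and 3697 and 3748 with Slug siRNA. Both Slug siRNA arrays were above both control arrays. The log2 fold change was small, at 0.19 (SE 0.16, 95% interval -0.18 to 0.57, adjusted p = 0.688).

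PTGES2, a second membrane-associated synthase, was read by 2 probes that moved alike. The brighter read 1704 and 2120 units with control siRNA and 2227 and 1982 with Slug siRNA, so the groups overlapped. The log2 fold changes were 0.10 (95% interval -0.34 to 0.53, adjusted p = 0.895) and, on the dimmer probe, 0.06. On both probes the difference was positive in replicate 1 (0.36 and 0.25) and negative in replicate 2 (-0.17 and -0.14).

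PTGES3 encodes the cytosolic synthase, better known as an HSP90 co-chaperone. It read 726 and 679 units with control siRNA and 664 and 784 with Slug siRNA, again with overlap. The log2 fold change was -0.03 (95% interval -0.43 to 0.37, adjusted p = 0.972), and it was 0.017 with median scaling in place of quantile normalization.

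The transporters differed in opposite directions, and neither passed. ABCC4, an ATP-driven pump that exports prostaglandins and cyclic nucleotides, read 235 and 257 units on its brighter probe with control siRNA and 187 and 207 with Slug siRNA. Its second probe read 190 and 204 against 158 and 189. Both Slug siRNA arrays were below both control arrays on each probe. The brighter probe had a log2 fold change of -0.69 (SE 0.18, 95% interval -1.11 to -0.26, adjusted p = 0.199), with -0.71 in replicate 1 and -0.66 in replicate 2, and it stood at -0.38 without background correction. The second gave -0.52 (adjusted p = 0.404), with -0.69 and -0.35.

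SLCO2A1, the carrier that takes prostaglandins up into the cell, where HPGD acts on them, read 142 and 128 units with control siRNA and 156 and 167 with Slug siRNA. It was dim, with a detection p of 0.036 in control replicate 2. Both Slug siRNA arrays lay above both control arrays, but the replicates were less alike than those of HPGD. The log2 fold change was 0.65 (SE 0.23, 95% interval 0.12 to 1.19, adjusted p = 0.300), with 0.26 between the arrays numbered 1 and 1.05 between those numbered 2. It was 0.36 without control siRNA replicate 2 and 0.22 without background correction.

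PTGR1, the reductase that acts on the keto product of HPGD and also inactivates leukotrienes, lay on the other side from HPGD. Its brighter probe read 516 and 465 units with control siRNA and 451 and 403 with Slug siRNA, and its other probe 381 and 364 against 339 and 347. Both probes were lower in every Slug siRNA array. Their log2 fold changes were -0.32 (95% interval -0.74 to 0.09, adjusted p = 0.513) and -0.24 (adjusted p = 0.593). Without Slug siRNA replicate 2 the brighter probe gave -0.20.

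PTGER4, the EP4 receptor for prostaglandin E, which raises cyclic AMP, was the one receptor in the set. It read 153 and 182 units with control siRNA and 177 and 170.0 with Slug siRNA. The control arrays spanned both Slug siRNA arrays, and the log2 fold change was 0.02 (95% interval -0.51 to 0.55, adjusted p = 0.984). The difference was 0.39 in replicate 1 and -0.35 in replicate 2.

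Of the 9 genes that passed the filter on low values, each was detected on all 4 arrays, so none was kept through 1 group alone. The groups did not overlap for 5 of them, 3 higher (HPGD, PTGES, SLCO2A1) and 2 lower (ABCC4, PTGR1), where 45.1% of all genes did not overlap, 23.6% as higher and 21.5% as lower. At an unadjusted limma p under 0.05, 2 members were higher and 1 lower, where 13.0% of all genes reached that p. The median log2 fold change of the 8 members other than HPGD was -0.0027, beside 0.010 over all 11200 genes.

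**Figure D2:**
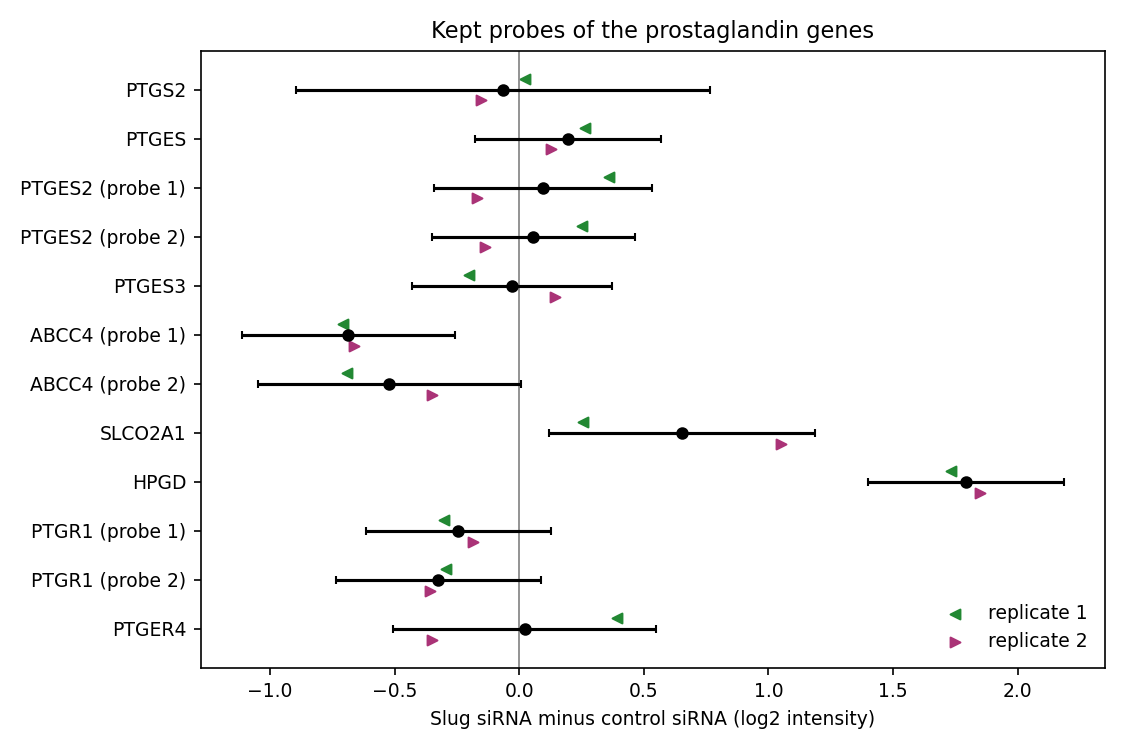
Slug siRNA minus control siRNA (log2 intensity) for each kept probe of the prostaglandin genes, with black points for the fitted difference, bars for its 95% interval and triangles for the difference within replicate 1 and replicate 2. HPGD lies at 1.79 with both triangles beside it, ABCC4 at -0.69 and -0.52, and the triangles of PTGER4 and both PTGES2 probes fall on opposite sides of 0.

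**Figure D3:**
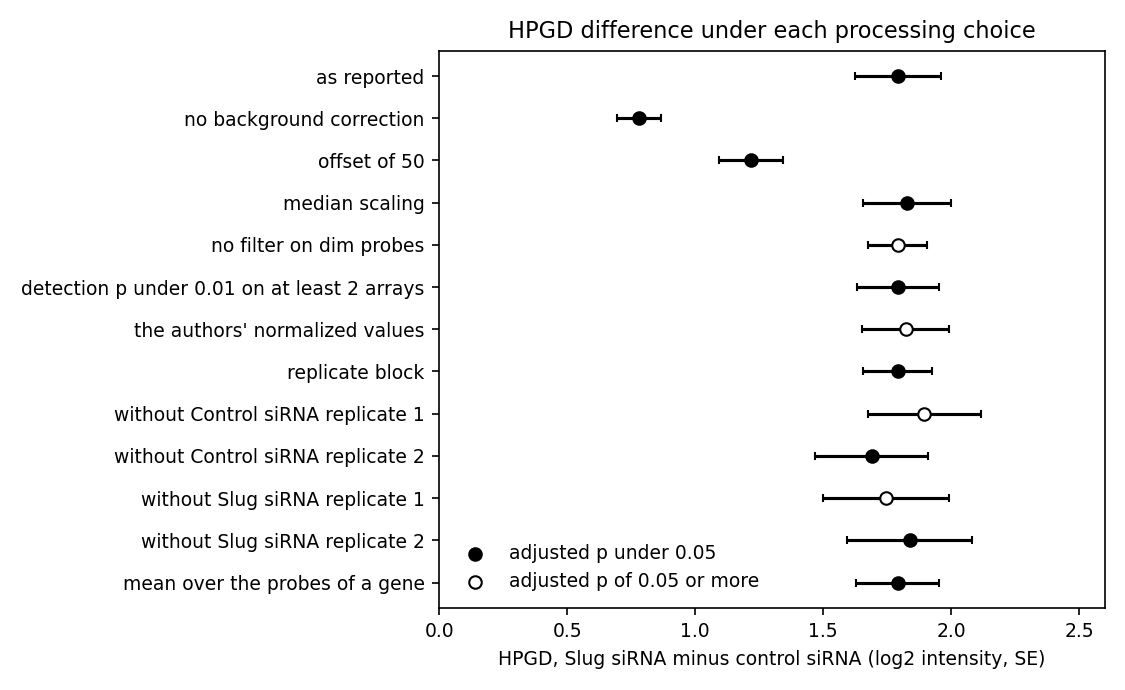
HPGD difference (log2 intensity) as reported and under each other processing choice, with bars for the SE, filled points for a limma adjusted p under 0.05 and open points for 0.05 or more. The values run from 0.78 without background correction to 1.89 without control siRNA replicate 1, and 4 points are open.

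Outside these 10 genes, 45 further genes of arachidonic acid release, prostanoid synthesis, transport, breakdown, reception and the lipoxygenase branch were listed. A probe was found for 41, and 20 passed the filter on low values. None of the 20 passed the limma adjusted threshold, and at an unadjusted p under 0.05, 2 were higher and 1 lower, where 13.0% of all genes reached that p. The lower one, PLA2G4C, was kept only through the control arrays, where it was higher, so the filter itself favoured that difference. The median log2 fold change of the 20 was -0.00013, with 10 positive and 10 negative.

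The largest differences were those of ALOX5AP and MGLL. ALOX5AP, the membrane protein that presents arachidonic acid to the lipoxygenase of leukotriene synthesis, read 131 and 135 units with control siRNA and 176 and 186 with Slug siRNA. The groups did not overlap, and the difference was 1.10 on the log2 scale (SE 0.16, 95% interval 0.71 to 1.48, adjusted p = 0.065). The lipoxygenase it serves, ALOX5, was at background on all 4 arrays, as was LTC4S, the leukotriene C synthase. LTA4H, also of the lipoxygenase branch, was bright at 3940 to 4512 units, with a log2 fold change of -0.15 (adjusted p = 0.794).

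MGLL, the monoacylglycerol lipase that frees arachidonic acid from an endocannabinoid, read 158 and 189 units on its brightest probe with control siRNA and 253 and 288 with Slug siRNA. Both Slug siRNA arrays were higher. This probe differed by 1.08 on the log2 scale (SE 0.24, adjusted p = 0.136), and a second kept probe gave 0.91. A phospholipase that frees arachidonic acid, PLA2G4A, stood at -0.27 (95% interval -0.76 to 0.23, adjusted p = 0.677). Its relative PLA2G4C read 129 and 135 units with control siRNA and was not above background with Slug siRNA, at 122 and 124. On the normalized log2 scale its control mean was 1.21-fold the lowest detected signal of the Slug siRNA arrays. The filter kept PLA2G4C through its control arrays, so this is not a lower limit on the fold. Its limma adjusted p was 0.284, and the ratio of the deposited intensities, control over Slug siRNA with background included, was 1.075.

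Among the other synthases, PRXL2B, a prostaglandin F synthase, stood at 0.43 (adjusted p = 0.413) and the carbonyl reductase CBR3 at -0.16 (adjusted p = 0.778). The aldo-keto reductase AKR1C3, which makes prostaglandin F, was bright, at 8890 to 9784 units on the 4 arrays, and its log2 fold change was -0.0089 (95% interval -0.39 to 0.37). Its close paralog AKR1C2 stood at 0.03 on its brightest probe and at -0.31 on its other kept probe, which was dim. These paralogs share sequence, and whether a probe of either also reads the other was not tested. The synthases PTGDS, HPGDS, PTGIS and TBXAS1, of prostaglandin D, prostacyclin and thromboxane, were at background on all 4 arrays.

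Of the transporters, SLCO3A1, which can carry prostaglandins, had 3 kept probes at 0.27, 0.47 and 0.28 (limma adjusted p = 0.594, 0.297 and 0.578). Its other probes were at background on every array. SLCO4A1 stood at 0.0086 (adjusted p = 0.992). PTGR2, the second reductase of keto prostaglandins, stood at -0.41 (95% interval -0.89 to 0.06, adjusted p = 0.459). The other prostanoid receptors were mostly at or near background. PTGFR, the prostaglandin F receptor, was the 1 of 8 that passed the filter, detected on 2 of 4 arrays, with a log2 fold change of 0.13 (adjusted p = 0.865). PTGER1, PTGER2, PTGDR, PTGDR2 and TBXA2R were at background on every array. PTGER3, on 1 of its probes, and PTGIR passed the detection threshold on control siRNA replicate 1 alone.

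In the lipoxygenase branch, ALOX15B, which oxygenates arachidonic acid in epithelia, differed between replicate numbers in the opposite sense to PTGS2. It read 204 and 150.2 units in control replicates 1 and 2 and 175 and 147 units in Slug siRNA replicates 1 and 2. The arrays numbered 2 were lower in both groups, by a fitted difference of -0.85 (limma adjusted p = 0.142). The difference between siRNAs was -0.37 (95% interval -1.22 to 0.48, adjusted p = 0.748).

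**Figure D4:**
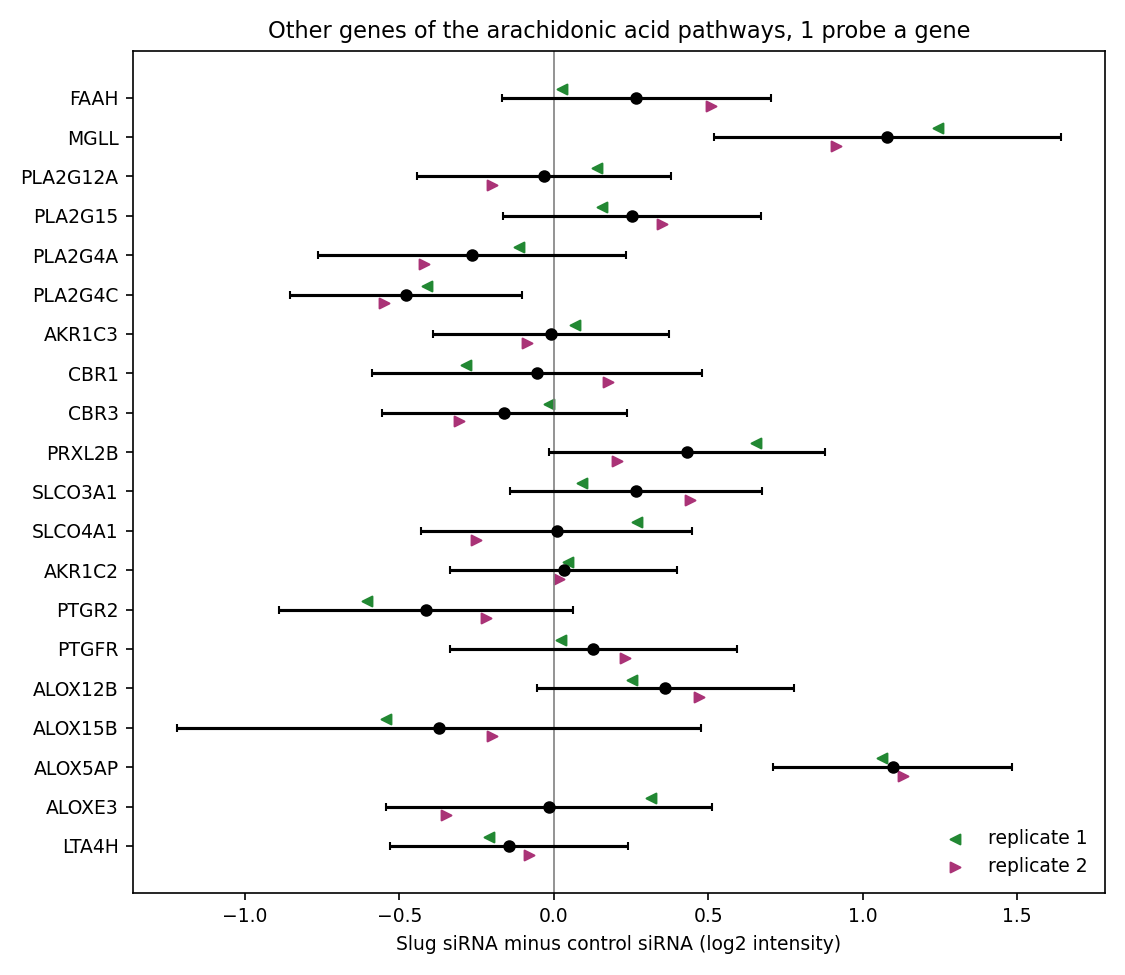
Slug siRNA minus control siRNA (log2 intensity) for the 20 kept genes of the related lists, with black points for the fitted difference of 1 probe a gene, bars for its 95% interval and triangles for the difference within each replicate. ALOX5AP at 1.10 and MGLL at 1.08 have both triangles well to the right of 0, and most other intervals include 0.

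The genes whose pattern over the 4 arrays was most like that of HPGD were found by the distance between log2 values centred on each gene's own mean. They were YOD1, a deubiquitinase (distance 0.15), SUSD2, a membrane protein (0.29), DMBT1, a secreted mucosal glycoprotein (0.34), SRGN, the proteoglycan serglycin (0.44), and CRACR2B, a regulator of calcium entry channels (0.47). Their log2 fold changes were 1.65, 1.51, 1.57, 1.37 and 1.48 in that order. With 4 arrays in 2 groups, likeness mostly restates a similar difference between the groups, and no test was made.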

How the data were processed

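The authors deposited the mean bead intensity of each probe (linear scale, not normalized, per the file headers), with detection p-values, bead standard errors and counts of beads (median 20 to 21 a probe). They also deposited a table of normalized intensities, used as an alternative (how it was made is not given in the sources used here). A further 8 columns of the bead table were not used. With R 4.3.3 and limma 3.58.1, negative control levels were estimated by way of the detection p-values, and intensities were background-corrected (normal-exponential model, offset 16), quantile normalized and put on a log2 scale. Probes with a detection p under 0.05 on at least 2 arrays were kept (19446), and the brightest kept probe on average stood for each of 11200 genes. Symbols came from the platform annotation, with 1 symbol on 30113 probes, several on 8 and none on 17202.

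The siRNA was the only term of the two-sided limma fit (lmFit, eBayes). P-values were Benjamini-Hochberg adjusted across every kept probe, and those under 0.05 counted as passing. With 2 against 2 arrays the smallest exact permutation p is 0.333. The fit was also run on simulated arrays with known changes, and the check was only that the mean estimate lay near the known change. Noise there was drawn independently for each array, so this check does not bear on the p-values. Alternatives were the background correction, offset, scaling, filter, the authors' values (pseudocount 16), the replicate number as a term, each array left out and the mean over probes. The members, lists and naming rule were chosen with earlier results of these data known. The rule named all 10 members and SNAI2, the 2 genes of each related list with the largest change, or those past the threshold, and the 5 genes most like HPGD. Genes at background, PLA2G4A, AKR1C3, LTA4H, LTC4S, ALOX5, ALOX12B, ALOXE3, PTGER3, PTGIR and the single cell type markers were named after their values were seen. Related genes with no matched probe were not analysed here. Figures were drawn with matplotlib 3.10.9.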

Additional observations from a re-analysis of the deposited data

How the results depend on the processing

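HPGD was higher with Slug siRNA under all 12 alternatives (log2 fold change 0.78 to 1.89, limma adjusted p from 0.0058 to 0.126). It missed the threshold, leaving 0 members past it, with no filter on dim probes (1.79), with the authors' normalized values (1.82) and without control siRNA replicate 1 or Slug siRNA replicate 1. With 1 array left out it ranged from 1.69 to 1.89, and the number of members past the threshold was 0 or 1. The lone array of a group is then assumed to vary like the other group. The median of the other 8 members, -0.0027, ranged from -0.15 (without control siRNA replicate 1) to 0.25 (without control siRNA replicate 2). ABCC4, PTGR1, SLCO2A1 and PTGES kept their direction under all 12, with ranges of -0.82 to -0.38, -0.45 to -0.20, 0.22 to 0.94 and 0.14 to 0.25. The values of ABCC4 and SLCO2A1 nearest 0 came without background correction, and SLCO2A1 was 0.38 with an offset of 50. Members near 0 changed sign with arrays left out, PTGS2 to 0.40 and 0.31 (-0.53 to 0.40 over the 4), PTGES2 to -0.056 and -0.015 (up to 0.25), PTGES3 to 0.028 and 0.089 (down to -0.14) and PTGER4 to -0.27 and -0.056 (up to 0.31). PTGES3 was also 0.017 with median scaling. Why these values moved was not tested, beyond the arrays left out. Of the related genes, 1 passed with an offset of 50 (ALOX5AP, log2 fold change 0.68, adjusted p = 0.037) and 2 with the replicate number as a block (ALOX5AP, adjusted p = 0.018, and MGLL, adjusted p = 0.023). With that replicate block the adjusted p of HPGD was 0.0097, and 361 genes passed in place of 13. Deviations of same-numbered arrays correlated at r = 0.36 across kept probes, but 2 pairs and labels that name no shared day do not establish pairing. Over all genes, 0 passed with no filter, 3 with the authors' values, 34 with median scaling, 52 with a stricter filter (detection p under 0.01), 158 without background correction and 217 with the larger offset. Without control siRNA replicate 1 it was 3, without control siRNA replicate 2 it was 20, without Slug siRNA replicate 1 it was 5 and without Slug siRNA replicate 2 it was 17. Signal over background limits the values of HPGD in control cells, SLCO2A1, ALOX5AP, PTGFR, ALOX12B, ALOXE3 and PLA2G4C, whose control intensities lie close to the negative controls.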
